A study of Mus musculus with 30 samples.

Results

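The response to bleomycin in young Zmpste24 deficient lung was read from 6 arrays of a series of 30, 3 from mice given bleomycin and 3 from mice given saline. The arrays were taken by title and label. All 6 mice were C57BL/6 of genotype Zmpste24 -/-, aged 7 weeks by their labels, and their lungs were collected at day 21 after a single oropharyngeal dose. The labels put the bleomycin dose at 1 U per g, and the methods give another dose. By the genotype label the null allele is carried by every cell of these mice, saline controls included. The Zmpste24 levels of saline replicates 2 and 3, given below, went against that label. By the methods each group holds 3 biological samples, and RNA of whole lung was read on Affymetrix Mouse Gene 2.0 ST arrays in 2 sets run at different moments, of which these 6 belong to set 2. Values are deposited log2 levels, in which 1 unit is a doubling, and 22180 genes, each read by a probe set that maps to it alone, were tested.

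Bleomycin is an antibiotic that breaks DNA. In mouse lung it damages the alveolar epithelium, draws in neutrophils and then monocytes, and leaves a scar laid down by fibroblasts. Zmpste24 is the protease that matures prelamin A to lamin A, and mice without it accumulate farnesylated prelamin A at the nuclear envelope and age early. The comparison addresses what a young lung with this defect expresses at the fibrotic stage of the injury.

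Other groups served as reference only, each with 3 arrays per treatment. They were old WT mice (82 weeks, set 2), old Zmpste24 -/- mice (16 weeks, set 1) and WT mice of set 1, which the titles call young and the age label puts at 16 weeks. Saline lungs at 7 weeks were also available as 3 Zmpste24 -/- arrays of set 1 and 3 WT arrays of set 2.

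The saline arrays carried RNA of tissues other than lung. Krt4, a keratin of wet squamous epithelium, read 11.81, 11.68 and 11.40 in saline replicates 1 to 3 and 4.96, 5.39 and 5.07 in bleomycin replicates 1 to 3. Acta1, the actin of skeletal muscle, read 10.60, 10.75 and 10.55 with saline and 5.85, 6.14 and 5.78 with bleomycin. Both genes were high in every saline lung, and low in every bleomycin lung and in young WT saline lungs (4.85 to 5.13 and 6.03 to 6.21). Ucp1, the uncoupling protein of brown fat, was high in saline replicates 2 (8.72) and 3 (9.13) but not in replicate 1 (5.46) or after bleomycin (5.19 to 5.60). Alb, serum albumin, a liver product, had the same pattern, with 5.56, 9.89 and 9.95 against 6.11, 5.43 and 5.58. Such RNA was treated as attached tissue.

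Whole lists gave the same picture. The mean log2 level of 28 squamous epithelium genes was 7.04 to 7.11 in the saline arrays and 5.58 to 5.82 in the bleomycin arrays, and that of 20 skeletal muscle genes was 7.69 to 7.73 against 5.71 to 5.87. Of the 6 young Zmpste24 -/- saline arrays, only set 1 replicate 1 lacked this RNA, with means of 5.68 and 5.88 and a Krt4 level of 6.22. It was therefore used as a second control, a choice made after its values were seen, although a single array from the other set gives no spread of its own. Set 1 replicates 2 and 3 were most like set 2 replicates 3 and 1, at r = 0.9909 and 0.9909 across genes, which are not independent replicates, and the sources used here do not say whether a lung entered both sets. Set 2 saline replicates 2 and 3 were the most alike pair of young Zmpste24 -/- arrays, at r = 0.9937. Whether these arrays came from separate lungs was not tested.

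**Figure D1:**
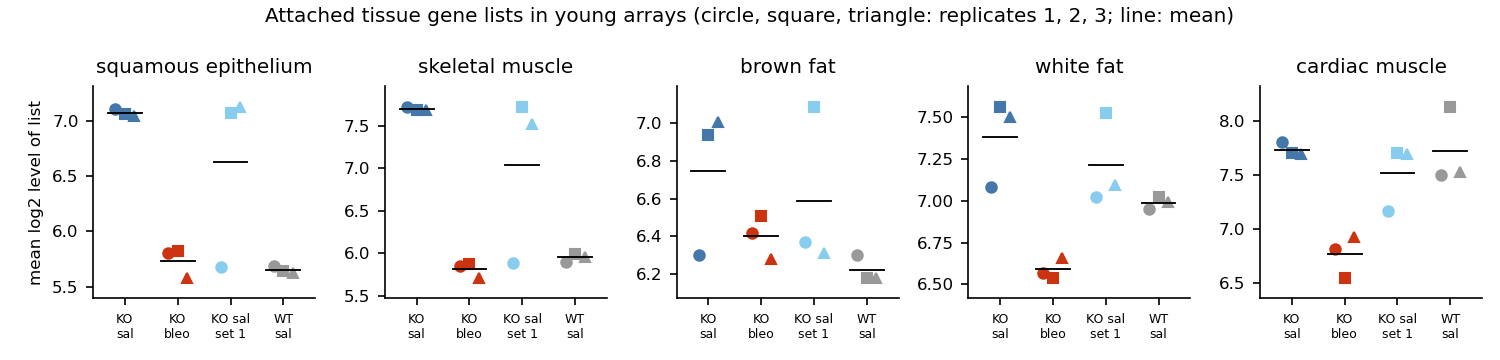
Mean log2 level of the genes of 5 tissue lists in each young array: Zmpste24 deficient (KO) saline and bleomycin lungs of set 2, KO saline lungs of set 1 and WT saline lungs of set 2 (symbols, replicates; line, mean of 3). Squamous and skeletal muscle genes are high in all 3 set 2 saline arrays and in 2 of the 3 set 1 arrays, and low in the bleomycin arrays.

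The deleted gene went against some saline labels. Zmpste24 read 6.09, 7.60 and 7.93 in saline replicates 1 to 3 and 5.78, 6.37 and 6.21 in the bleomycin arrays. The 15 WT arrays lay at 7.93 to 8.68 and the 6 old Zmpste24 -/- arrays at 5.69 to 6.56, so that saline replicates 2 and 3, labelled Zmpste24 -/-, sat near the WT level. Set 1 saline replicates 1 to 3 read 5.62, 7.55 and 5.29. Set 2 saline replicate 1 and set 1 saline replicates 1 and 3 formed a further control from both sets, the 3 saline arrays without Zmpste24 near the WT level. Saline replicate 2 and bleomycin replicate 1 also held both Xist (9.64 and 9.18), the RNA of the inactive X chromosome, and the Y-linked Eif2s3y (5.66 and 7.76). Directions below rest on 3 libraries labelled Zmpste24 -/- saline, and the counts of the main gene lists are also given with saline replicate 1 as the only control.

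Lung identity was clear throughout. Sftpc, Scgb1a1 and Ager, which mark alveolar type 2, club and alveolar type 1 cells, read 13.36 to 13.42, 13.44 to 13.60 and 12.55 to 12.65 over the 6 arrays.

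In limma, 556 genes rose with bleomycin, or 2.51% of those tested, and 493 fell, or 2.22%, at an adjusted p under 0.05. Of these, 164 rose and 171 fell by more than 1 log2 unit. All 3 bleomycin arrays lay above all 3 saline arrays for 15.0% of genes and below them for 11.0%. With saline replicate 1 as the only control 0.500% of genes rose and 0.500% fell. Against set 1 saline replicate 1, the array without squamous and muscle RNA, 0.739% rose and 0.180% fell. Against young WT saline, which changes genotype together with treatment, 2.83% were higher and 1.47% lower. All these comparisons share the bleomycin arrays.

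Attached tissue moved with a part of the falls. Of the 493 genes that fell, 69 (14%) were also more than 1 unit higher in set 1 saline replicates 2 and 3 than in set 1 replicate 1, and 424 were not. Among those that fell by more than 1 log2 unit the number was 63 (36.8%). The pattern was found in 0.433% of all genes and in 0 of the genes that rose. Set 1 replicates 2 and 3 were most like saline arrays of set 2, which are subtracted here, so the 0 among rises tests nothing. The pattern asks for a higher level in both replicates, so it misses tissue RNA that is high in set 1 replicate 2 alone. Ucp1 read 6.01, 8.78 and 5.57 in set 1 replicates 1 to 3, and 0 of 11 brown fat genes had the pattern. Of the 556 genes that rose, 545 (98.0%) also had a positive difference against set 1 replicate 1, and of the 493 that fell, 407 (82.6%) had a negative one. Both differences use the same bleomycin arrays, by which these genes were picked. Agreement in sign is therefore partly built in and is no separate support. Squamous genes fell in 13 of 28 cases and skeletal muscle genes in 16 of 20. Falls numbered 11 and 14 with saline replicate 1 alone. Against set 1 replicate 1 the squamous and skeletal muscle medians were 0.02 and 0.02. That array was chosen because it lacked such RNA, so these medians follow from the choice and test nothing.

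**Figure D2:**
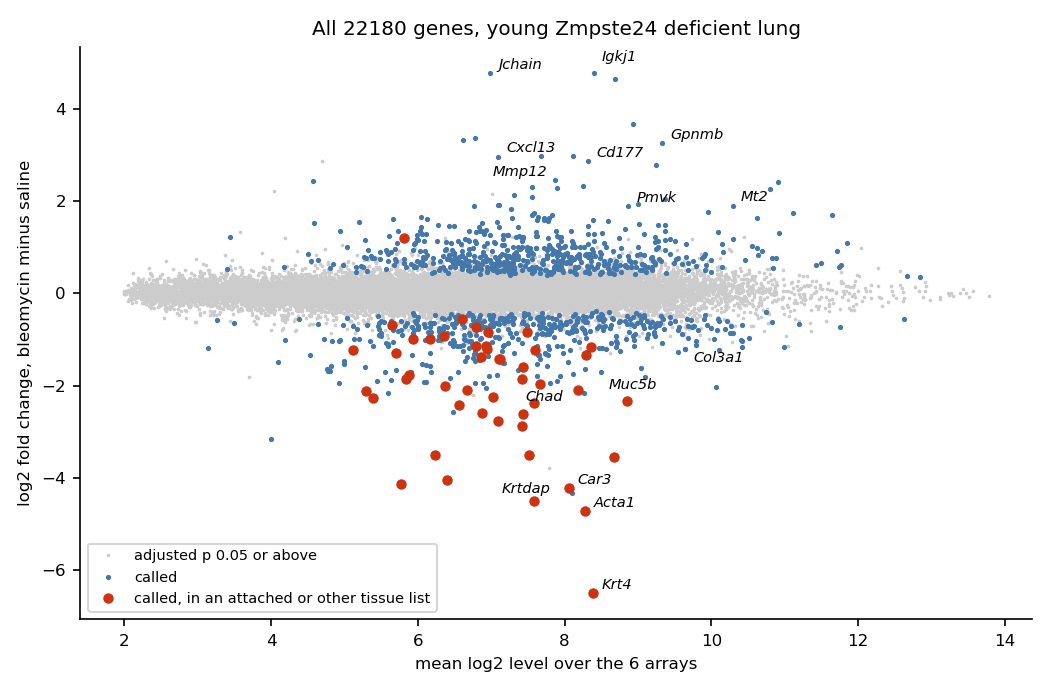
Log2 fold change of each gene (bleomycin minus saline, 3 arrays each) against its mean log2 level over the 6 arrays. Blue points are called genes and red points called genes of attached or other tissue lists; many of the deepest falls, such as Krt4 and Acta1, are red, while Jchain, Igkj1, Gpnmb and Cd177 stand among the largest rises.

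Macrophage genes of the lipid handling, matrix degrading kind rose. Of 24 measured genes listed for profibrotic, monocyte derived macrophages, 14 rose and 1 fell, with a median change of 0.95 where that of all genes was 0.02. With saline replicate 1 alone 10 rose and 0 fell (median 1.01), and against set 1 replicate 1 the counts were 10 and 0 (median 1.06). In whole lung RNA, more cells of a type and more RNA per cell cannot be told apart.

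Gpnmb, a membrane glycoprotein of lipid laden macrophages, read 7.80, 7.61 and 7.69 with saline and 11.02, 11.10 and 10.76 with bleomycin. The groups lay far apart, and the rise was 3.26 ± 0.25 (log2, SE of the fit) or 9.59-fold (adjusted p = 7.54e-09). It was 3.16 against saline replicate 1 and 3.73 against set 1 replicate 1, the array without attached tissue. Mmp12, the macrophage elastase, read 6.12, 6.86 and 6.96 against 9.43, 9.06 and 8.78 and rose by 2.45 ± 0.39 (adjusted p = 0.000233).

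Receptors for lipid and debris moved with them. Trem2, which senses lipids and apoptotic cells, read 6.63, 6.72 and 6.82 with saline and 8.37, 8.85 and 8.13 with bleomycin, a rise of 1.73 ± 0.20 (adjusted p = 4.76e-06). Msr1, a scavenger receptor, read 5.87, 6.13 and 6.34 against 7.68, 7.71 and 7.53 and rose by 1.53 ± 0.20. In both the lowest bleomycin lung was more than 1 unit above the highest saline lung. Apoe, the lipid carrier that such macrophages secrete, rose by 1.21 ± 0.14, with an SD of 0.03 among the saline arrays. Lpl, which hydrolyses triglycerides, rose by 1.07 ± 0.19 from 9.55, 9.59 and 9.69 to 10.71, 10.69 and 10.62. Lpl is also on the alveolar and adventitial fibroblast list, where it was the 1 rise and 5 of 17 genes fell.

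The 3 chains of C1q, which starts the classical complement pathway and in tissue is largely a macrophage product, rose together. C1qa rose by 1.56, C1qb by 2.04 and C1qc by 1.69, and for each of them bleomycin replicate 3 was the lowest of the bleomycin lungs (8.03, 9.89 and 7.97). Ms4a7, a membrane protein of tissue macrophages, rose by 1.89 from saline levels of 5.79 to 5.85. Some genes of lysosomal proteins rose as well, although no list of such genes was examined. Cd68, a glycoprotein of macrophage lysosomes, went from 8.83, 9.24 and 9.15 to 10.84, 11.10 and 10.55, a rise of 1.76 ± 0.28. Ctsk, a cathepsin that cleaves collagen and elastin, rose by 1.70, the protease gene Ctsb by 1.09, and Atp6v0d2, a proton pump subunit, by 1.93. Ctsk and Atp6v0d2 are on the alveolar macrophage list, where they were the 2 rises and 3 of 16 genes fell. Lgals3, a galactose binding lectin, rose by 0.94. Cd68 and Ctsb were chosen after their values were seen.

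Pdgfb, a growth factor for fibroblasts and pericytes that endothelium also makes, was the member of the macrophage list that fell. It read 9.30, 9.45 and 9.44 with saline and 8.47, 8.51 and 8.41 with bleomycin, and fell by 0.93 ± 0.16 (adjusted p = 0.000481). Against saline replicate 1 alone its difference was -0.83 (adjusted p = 0.0843). It was chosen after its values were seen.

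The sequence before the Cd68 start is shown because Cd68 is a general marker of macrophages and because Fos, a subunit of the transcription factor AP-1, rose in the same lungs. Fos read 6.55, 6.63 and 6.72 with saline and 7.57, 7.45 and 7.99 with bleomycin (1.04 ± 0.17, adjusted p = 0.000256). The 250 bases before the start (RefSeq, GRCm38.p6, chr11:69666171-69666420, minus strand) hold 2 matches of the AP-1 motif TGANTCA, searched on both strands and printed in capitals:
Cd68: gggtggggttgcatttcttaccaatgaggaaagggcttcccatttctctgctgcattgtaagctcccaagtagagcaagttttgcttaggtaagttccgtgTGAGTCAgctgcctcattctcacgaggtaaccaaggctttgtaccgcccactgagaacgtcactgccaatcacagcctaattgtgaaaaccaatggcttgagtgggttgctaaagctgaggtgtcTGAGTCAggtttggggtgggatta
The motif lies in 6.75% of 32851 windows of this kind. Counted by gene, with a match in any window of the gene, it lies in 7.44% of 16990 tested genes and in 9.68% of 434 genes that rose. The share of windows and the shares of genes are different units. A match describes letters and is no evidence of binding.

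**Figure D3:**
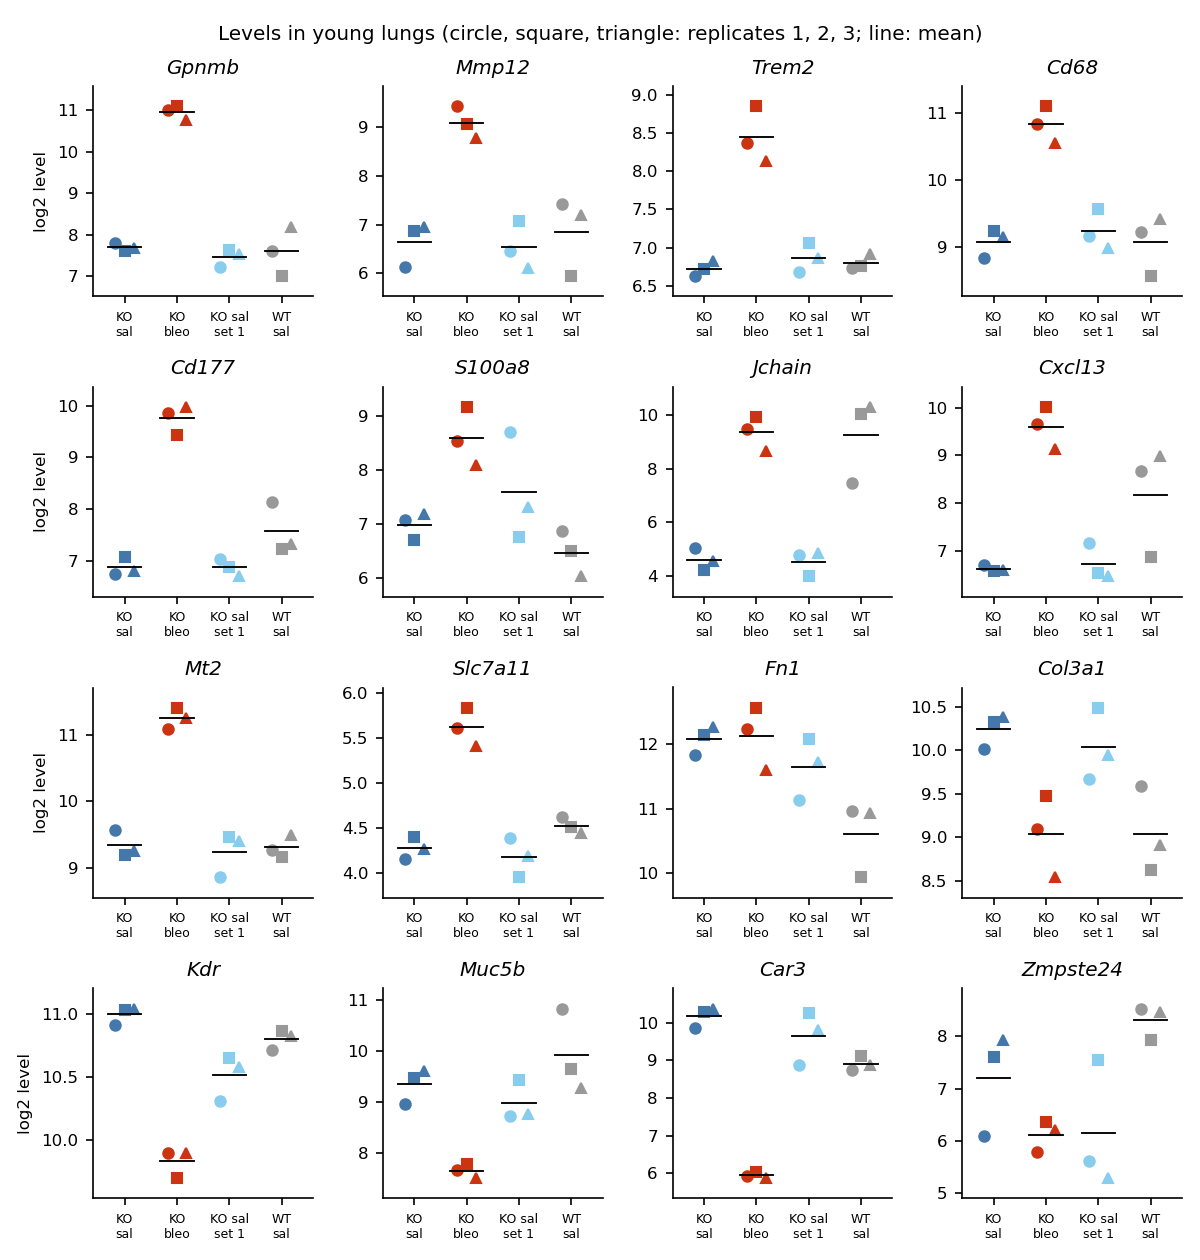
Log2 level of 16 genes in each young array (KO, Zmpste24 deficient; sal, saline; bleo, bleomycin; symbols, replicates; line, mean of 3). Gpnmb, Trem2, Cd177, Mt2 and Slc7a11 are highest in the bleomycin lungs, Jchain is low in all 6 KO saline lungs but not in WT, and S100a8 is high in set 1 KO saline replicate 1.

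Neutrophil genes rose as a second group. Of 17 measured, 11 rose and 0 fell (median 1.01). Cd177, a surface glycoprotein of neutrophils, read 6.75, 7.08 and 6.81 with saline and 9.86, 9.44 and 9.97 with bleomycin, a rise of 2.87 ± 0.23 or 7.33-fold (adjusted p = 7.54e-09). Mmp8, neutrophil collagenase, rose by 1.82 ± 0.30 from saline levels of 6.33 to 6.39, and Il1r2, the decoy receptor for interleukin 1, by 1.36. The alarmins S100a8 and S100a9 rose by 1.62 and 1.26. Retnlg, a resistin-like gene chosen after its values were seen, rose by 2.09.

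The neutrophil result depended on the control. Against saline replicate 1 alone 2 of the 17 rose (median 0.65). Against set 1 replicate 1, whose S100a8 level of 8.70 lay inside the bleomycin range of 8.09 to 9.17, 1 rose and the median was 0.32. S100a8 and S100a9 then had differences of -0.09 and -0.17, whereas Cd177 was still higher by 2.72 (adjusted p = 9.95e-05).

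The largest rises of all were in antibody genes. Jchain, the chain that joins secreted IgM and IgA, read 5.03, 4.21 and 4.57 with saline and 9.50, 9.92 and 8.65 with bleomycin, a rise of 4.76 ± 0.57 or 27-fold (adjusted p = 7.41e-06). Ighm, the heavy chain of IgM, rose by 2.41 ± 0.42, from 9.35, 9.89 and 9.85 to 12.31, 12.54 and 11.47. Igkj1, a joining segment of the kappa light chain, rose by 4.77 and Igh-VS107, a heavy chain variable gene, by 3.67. Of 13 measured plasma cell genes 2 rose, Jchain and Ighm, and 0 fell (median 0.31). Of 22 genes with immunoglobulin symbols, a list made after values were seen, 13 rose and 0 fell (median 2.34). The rises numbered 7 with saline replicate 1 alone (median 2.55) and 3 against set 1 replicate 1 (median 1.94). Such segments share sequence, so which of them a probe set read is uncertain.

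Here the saline lungs stood apart from WT. Young WT saline lungs read 7.47, 10.03 and 10.30 for Jchain, so that the bleomycin lungs lay within the WT range and all 6 young Zmpste24 -/- saline arrays (3.98 to 5.03) below it. Against young WT saline 0 of the 22 genes were higher and 0 lower, and Jchain differed by 0.09. Of 12 measured B cell genes 0 rose and 0 fell (median -0.01). Cd79a, part of the B cell receptor, read 7.36, 8.61 and 8.65 with saline and 8.42, 8.69 and 8.14 with bleomycin, and the groups overlapped.

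Cxcl13, the chemokine that draws B cells into follicles, read 6.70, 6.59 and 6.60 with saline and 9.66, 10.01 and 9.14 with bleomycin. The rise was 2.97 ± 0.46 or 7.85-fold (adjusted p = 0.000143), and 2.90 against saline replicate 1. Cxcl13 was not called against set 1 replicate 1, the array without attached tissue. Young WT saline lungs ranged over 6.87 to 8.98, all below the lowest bleomycin lung. T cell genes gave 1 rise and 0 falls of 15. Dendritic cell, interferon induced and antigen presentation genes gave 0 calls of 13, 24 and 17.

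Complement and acute phase genes rose in 9 of 19 cases, with 0 falls and a median of 0.87; 3 of these are the C1q chains above. Serpina3n, a serine protease inhibitor, read 10.66, 10.79 and 10.92 with saline and 12.74, 12.63 and 12.10 with bleomycin, a rise of 1.70 ± 0.36. Lcn2, a lipocalin that binds bacterial siderophores, rose by 1.30, and Orm1, an acute phase glycoprotein, by 1.37. Saa3, a serum amyloid A of inflamed tissue, rose by 2.30, with a wide spread among bleomycin lungs (9.02, 9.41 and 7.68). The list had 2 rises and 0 falls with saline replicate 1 alone (median 1.07), and 5 rises and 0 falls with set 1 replicate 1 (median 1.01).

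Metalloproteinases and their inhibitors rose in 4 of 17 cases, with 0 falls. Besides Mmp12 and Mmp8 these were Mmp19, which cleaves basement membrane proteins, with 7.62, 7.89 and 7.79 against 9.13, 8.90 and 9.09 (1.28 ± 0.22), and Timp1, an inhibitor of such enzymes, with 6.19, 6.14 and 6.01 against 7.25, 8.39 and 6.99 (1.43 ± 0.40, adjusted p = 0.0369). For Timp1 bleomycin replicate 2 was higher than the other 2 by more than 1 unit. Mmp13, a collagenase, had a difference of 0.41 ± 0.27 (adjusted p = 0.561). Over the list 3 genes rose with saline replicate 1 alone and 2 against set 1 replicate 1.

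Collagen genes did not rise. Of 19 fibrillar and associated collagens 0 rose and 4 fell, with a median of -0.33. Col1a1, a chain of type I collagen, read 10.67, 10.90 and 10.86 with saline and 9.91, 10.26 and 9.09 with bleomycin, a difference of -1.06 ± 0.38 (adjusted p = 0.131). Col3a1, the type III chain, read 10.02, 10.33 and 10.38 against 9.09, 9.47 and 8.54 and fell by 1.21 ± 0.28 (adjusted p = 0.00957). Every bleomycin lung lay below every saline lung for both. Col6a3 and Col14a1 fell by 1.19 and 1.25.

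The mean level of the collagen list was 7.48 in set 1 saline replicate 1 and 8.10 and 7.82 in replicates 2 and 3. Of the 19 genes 1 had the attached tissue pattern, against 0.433% of all genes. Col1a1 was at least 1 unit higher in set 1 saline replicates 2 (11.06) and 3 (10.59) than in replicate 1 (9.59). With saline replicate 1 alone, which holds squamous and muscle RNA, 0 of the 19 fell (median -0.23). Against set 1 replicate 1, 0 fell and the median was 0.13, with Col1a1 at 0.17 and Col3a1 at -0.64. Young WT saline lungs read 9.52 to 9.93 for Col1a1, within the bleomycin range, and gave a median of -0.01. Against the 3 saline arrays without Zmpste24 near the WT level 1 of the 19 fell (median -0.09). The count of collagens that rose was 0 with each of these controls.

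Other matrix genes split. Fn1, fibronectin, a scaffold of new matrix, read 11.83, 12.14 and 12.27 with saline and 12.23, 12.56 and 11.60 with bleomycin, and the groups overlapped (0.05 ± 0.36, adjusted p = 0.985); young WT saline lungs read 9.94 to 10.97. Tnc, tenascin C of wounds, read 7.11, 7.77 and 7.69 against 8.53, 9.19 and 7.12, and its difference of 0.76 ± 0.51 did not pass (adjusted p = 0.581). Both genes were lowest among bleomycin lungs in replicate 3. Tgfbi, an adhesion protein that TGF-beta induces, rose by 0.76 ± 0.22 (adjusted p = 0.0462). Eln, elastin, had 10.96, 11.87 and 11.99 with saline and 10.58, 10.57 and 10.29 with bleomycin (-1.13 ± 0.38, adjusted p = 0.0946).

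Of 22 measured genes of TGF-beta signalling, a main fibrogenic pathway, 0 rose and 0 fell (median 0.07), and Tgfb1 itself had a difference of -0.14 ± 0.19 (adjusted p = 0.867). Of 24 measured genes of BMP and Wnt signalling 2 rose and 3 fell (median -0.12). The list's median was -0.03 with saline replicate 1 alone and 0.08 against set 1 replicate 1. Among antagonists of the BMP and Wnt pathways, Grem1, a BMP binder, read 5.72, 6.48 and 6.13 with saline and 7.66, 7.64 and 6.49 with bleomycin and rose by 1.15 (adjusted p = 0.0212). Sfrp1, a Wnt binder, rose by 1.30 (adjusted p = 0.0495), and its relative Sfrp2 fell by 1.11 ± 0.20 (adjusted p = 0.000829). The other falls of the list were Bmp6 and Bmp3. The set 1 replicate 1 array gave differences for Grem1 and Sfrp1 of 1.58 and 2.13 (adjusted p = 0.0751 and 0.0553).

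Contractile and mesenchymal genes fell. In the myofibroblast list 6 of 16 fell and 0 rose (median -0.90). Tpm2, a tropomyosin, went from 8.37, 8.31 and 8.44 to 7.04, 6.88 and 6.95 and fell by 1.42 ± 0.23, Myh11, the myosin of smooth muscle, fell by 1.13, and Spon2, a matrix protein, by 1.80. Tcf21, a transcription factor of lung fibroblasts, read 10.36, 10.06 and 10.08 against 9.11, 9.21 and 9.28 and fell by 0.97 ± 0.20. In the myofibroblast list 3 genes had the attached tissue pattern. Against the 3 saline arrays without Zmpste24 near the WT level 3 of the 16 fell (median -0.48). There was 1 fall with saline replicate 1 alone, with a median of -0.73. Against set 1 replicate 1, 0 of the list fell and its median was 0.03, with Tpm2 at -0.32 and Myh11 at -0.03, and Tcf21 had a difference of -0.76 (adjusted p = 0.282).

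In epithelium, genes of the transitional state through which alveolar type 2 cells pass in repair rose in 9 of 18 cases, with 0 falls (median 0.55). Krt8, a keratin that marks this state, read 8.44, 8.40 and 8.34 with saline and 9.03, 8.85 and 8.94 with bleomycin, a rise of 0.55 ± 0.15 (adjusted p = 0.023); it was chosen after its values were seen. Krt7 rose by 0.54 and Cldn4, a tight junction protein, by 0.79. Among the 9 are Lgals3, Lcn2 and Orm1, which other cells also make. With saline replicate 1 alone 1 rose (median 0.67), and against set 1 replicate 1 2 rose (median 0.87).

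Alveolar type 1 genes gave 0 calls of 14 and type 2 genes 1 rise and 0 falls of 17. In the club and goblet list 4 of 17 fell and 1 rose, with 1 fall and 0 rises for saline replicate 1 alone and 2 falls and 0 rises for set 1 replicate 1. Muc5b, a gel-forming mucin of the airways, read 8.95, 9.47 and 9.61 with saline and 7.65, 7.77 and 7.50 with bleomycin, and fell by 1.70 ± 0.33 (adjusted p = 0.0016). Bpifb1, an airway secretory protein, fell by 2.03 and Cyp2f2, the club cell cytochrome P450, by 0.56. Chad, which encodes the matrix protein chondroadherin, fell by 2.15 ± 0.27, from 9.27, 9.37 and 9.38 to 7.19, 7.15 and 7.23. In all 4 the groups did not overlap.

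Of these airway genes Chad was also called lower against the array without attached tissue, with -1.48 (adjusted p = 0.0495). Muc5b and Bpifb1 had differences of -1.08 and -1.17 there, with adjusted p of 0.368 and 0.387. Young WT saline lungs read 9.62 to 10.67 for Chad and 9.27 to 10.83 for Muc5b, above every bleomycin lung.

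Capillary endothelial genes fell in 6 of 14 cases, with 0 rises (median -0.51). Kdr, a receptor for VEGF, read 10.91, 11.03 and 11.04 with saline and 9.90, 9.70 and 9.90 with bleomycin, and fell by 1.16 ± 0.17 (adjusted p = 7.96e-05). Apln, a peptide of sprouting endothelium, fell by 1.76, from 7.62, 7.98 and 8.28 to 6.03, 6.64 and 5.94, and its receptor Aplnr by 1.54. Plvap, of fenestrated endothelium, fell by 1.04. With saline replicate 1 alone 3 fell, namely Kdr, Apln and Aplnr (adjusted p = 0.0236, 0.0408 and 0.0408). Against set 1 replicate 1 0 fell, and these genes had differences of -0.48, -1.28 and -1.34. Lymphatic genes had 3 rises and 0 falls of 7, led by Mmrn1, a multimerin, at 1.29 ± 0.28, with 0 rises for saline replicate 1 alone and 1 for set 1 replicate 1.

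**Figure D4:**
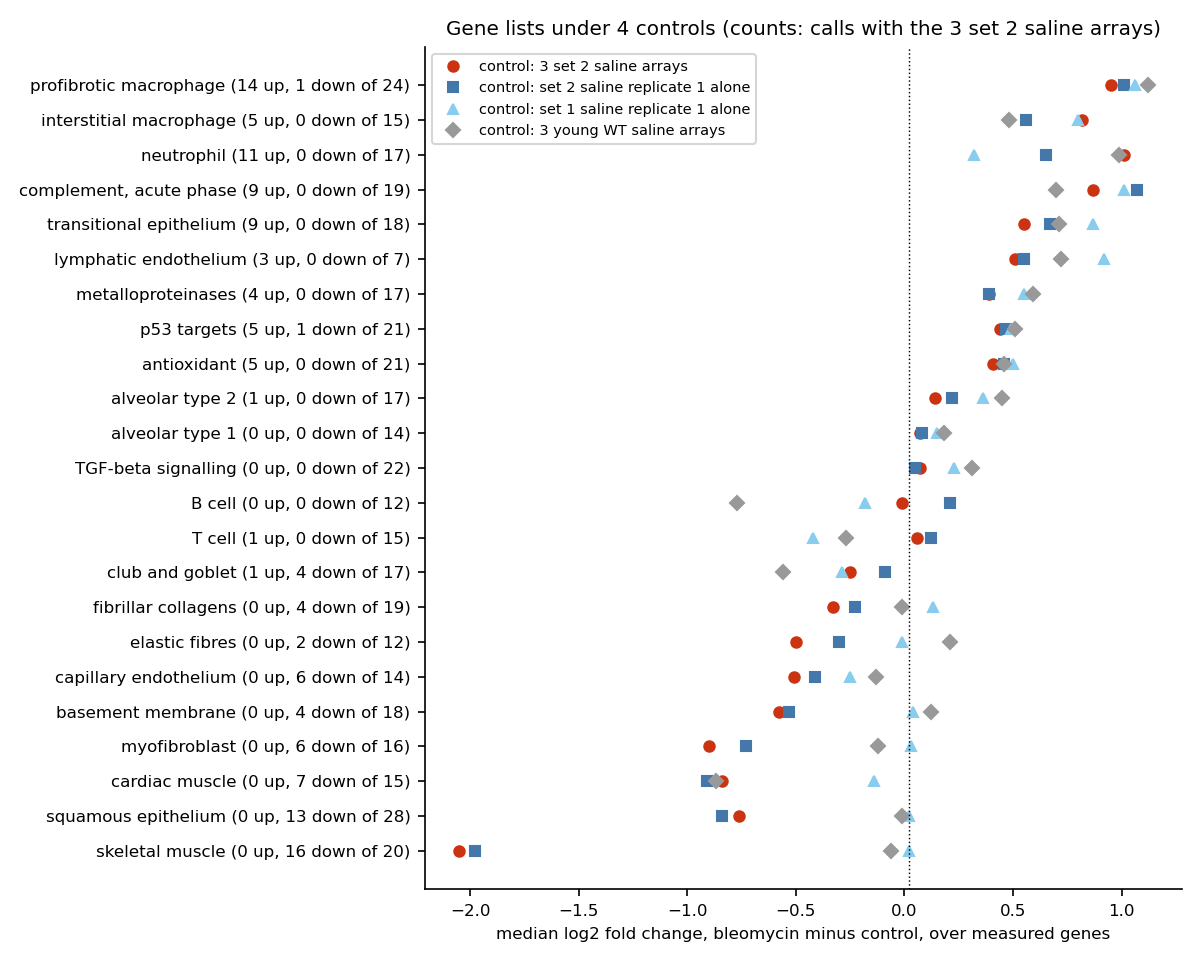
Median log2 fold change of gene lists (bleomycin minus control) under 4 controls, with the numbers of genes called against the 3 set 2 saline arrays; the dotted line is the median of all genes. Macrophage, complement and transitional epithelium lists have medians of 0.48 or more under every control shown. Squamous, skeletal muscle and myofibroblast lists lie near 0 with the set 1 array that lacks attached tissue. For the squamous and skeletal muscle lists this follows from the choice of that array.

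Several stress genes rose. Trp53inp1, a p53 target, read 9.11, 8.92 and 8.78 with saline and 10.11, 9.77 and 10.33 with bleomycin, a rise of 1.14 ± 0.16 (adjusted p = 4.79e-05). Ccng1, cyclin G1 and also a p53 target, rose by 1.17, and Ddit4, a stress induced inhibitor of mTOR, by 1.14. Over the list of p53 targets and senescence genes 5 of 21 rose and 1 fell (median 0.44). The list had 1 rise with saline replicate 1 alone (median 0.47) and 2 rises against set 1 replicate 1 (median 0.49). Cdkn1a, the cell cycle inhibitor p21, had 9.35, 10.02 and 10.13 against 11.04, 10.98 and 11.18, and its difference of 1.23 ± 0.39 did not pass (adjusted p = 0.067) although the groups did not overlap; against set 1 replicate 1 it was 2.34 (adjusted p = 0.0247). Cdkn1a was chosen after its values were seen. Of 26 cell cycle genes 0 rose and 1 fell, Top2a, a topoisomerase of dividing cells, by 1.05.

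Of 21 genes of antioxidant defence and NADPH oxidase 5 rose and 0 fell (median 0.41), against 3 rises with saline replicate 1 alone and 2 with set 1 replicate 1. Slc7a11, which imports cystine for glutathione, read 4.15, 4.40 and 4.26 with saline and 5.61, 5.83 and 5.41 with bleomycin (1.35 ± 0.24, adjusted p = 0.000703). Gclc, which catalyses the first step of glutathione synthesis, rose by 0.90 and Ncf1, a subunit of the phagocyte oxidase, by 0.89. Mt2, a metallothionein that binds zinc and copper, read 9.57, 9.19 and 9.25 with saline and 11.08, 11.40 and 11.25 with bleomycin, a rise of 1.90 ± 0.26 or 3.74-fold (adjusted p = 3.05e-05). It was 1.67 against saline replicate 1 and 2.38 against set 1 replicate 1, and called in both. Mt2 was chosen after its values were seen.

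The promoters of Slc7a11 and Mt2 are shown because each carries repeated motifs of a stress pathway. In Slc7a11 (RefSeq, GRCm38.p6, chr3:50443614-50443863, minus strand) the capitals mark 2 matches of TGATGNAA, an amino acid response motif read by ATF4. In Mt2 (chr8:94172368-94172617, plus strand) they mark 3 matches of the metal response core, TGCGCNC or TGCACNC. Both strands were searched in the 250 bases before each start, and no match overlaps one of another motif searched here.
Slc7a11: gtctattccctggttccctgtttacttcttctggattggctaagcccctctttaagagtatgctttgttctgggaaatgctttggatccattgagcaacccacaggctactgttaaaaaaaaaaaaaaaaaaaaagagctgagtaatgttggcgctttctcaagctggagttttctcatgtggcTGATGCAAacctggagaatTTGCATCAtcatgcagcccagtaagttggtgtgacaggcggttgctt
Mt2: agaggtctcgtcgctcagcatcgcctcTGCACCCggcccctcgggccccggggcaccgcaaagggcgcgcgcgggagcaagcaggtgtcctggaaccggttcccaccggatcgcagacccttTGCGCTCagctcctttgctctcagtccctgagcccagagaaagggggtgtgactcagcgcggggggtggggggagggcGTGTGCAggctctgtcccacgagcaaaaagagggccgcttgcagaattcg
The amino acid response motif lies in 3.45% of all such windows and, counted by gene, in 3.40% of tested genes and in 3.0% of those that rose. For the metal core the shares were 21.4% of windows, 27.4% of tested genes and 26.0% of genes that rose.

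Pmvk, phosphomevalonate kinase of sterol synthesis, read 8.03, 7.86 and 7.87 with saline and 9.97, 9.34 and 10.10 with bleomycin, a rise of 1.88 ± 0.15 (adjusted p = 7.54e-09), and it was called higher against each of the other controls. It was chosen after its values were seen. Lss, lanosterol synthase, rose by 0.98, one of 2 rises among 16 genes of sterol and lipid synthesis, with 0 falls.

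Some fat and heart genes fell below the young WT level. Car3, a carbonic anhydrase of fat cells and slow muscle, read 9.85, 10.28 and 10.37 with saline and 5.93, 6.04 and 5.88 with bleomycin, and fell by 4.22 ± 0.37 (18.6-fold, adjusted p = 5.41e-08). Unlike Krt4 and Acta1 it was also high in set 1 replicate 1 (8.88) and in young WT saline lungs (8.73 to 9.12), and it was called lower against each. White fat genes fell in 5 of 12 cases, and the list's mean level was 6.54 to 6.66 in the bleomycin arrays and 6.95 to 7.02 in young WT saline. Against young WT saline 1 of the 12 was called lower and 1 higher (median -0.21). Cardiac genes, which mouse lung carries in the muscle sleeves of its veins, fell in 7 of 15 cases. The white fat and cardiac lists had 1 and 2 falls with saline replicate 1 alone, and 1 and 1 with set 1 replicate 1. Nppa, atrial natriuretic peptide, read 8.18, 8.88 and 8.89 against 6.92, 6.23 and 6.91, with 9.01 to 10.05 in young WT saline, and Actc1, cardiac actin, fell by 2.34.

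Of 22 measured genes that the study's text names, 6 rose (Mmp12, Mmp8, Mmp19, Timp1, Tgfbi and Hif3a) and 1 fell, Col3a1. Hif3a, a hypoxia inducible factor subunit, rose by 0.85 ± 0.23 although its groups overlapped (7.39, 6.76 and 6.50 against 7.71, 7.27 and 8.21), and its difference from saline replicate 1 was 0.34 (adjusted p = 0.831).

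The bleomycin effect was then set against that in mice that share no arrays with it. The difference between effects was called for 2.64% of genes against old WT, 1.70% against old Zmpste24 -/- and 1.19% against WT of set 1. In those groups themselves bleomycin raised 0.500% and lowered 0.505% of genes in old WT, 7.32% and 3.28% in old Zmpste24 -/-, and 0.509% and 0.212% in WT of set 1. Age, genotype and set differ between the groups together and cannot be told apart.

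In macrophage genes the young Zmpste24 -/- effect differed from that in both old groups. Gpnmb changed by 3.26 here, 2.78 in WT of set 1, 1.13 in old Zmpste24 -/- and 0.27 in old WT. The differences from the old groups were 2.13 ± 0.35 (adjusted p = 0.00122) and 3.0 ± 0.35 (adjusted p = 1.68e-05), and that from WT of set 1 was 0.48 ± 0.35 (adjusted p = 0.778). Trem2 differed from the effects in old Zmpste24 -/- and old WT by 1.79 and 2.28, Ms4a7 by 2.68 and 2.72 and C1qb by 2.43 and 3.45, each called. Over the 24 genes, 10 rose and 0 fell in WT of set 1, 4 rose and 5 fell in old Zmpste24 -/-, and 0 rose and 1 fell in old WT.

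Neutrophil genes rose in 9 of 17 cases in old WT, 12 in old Zmpste24 -/- and 3 in WT of set 1. S100a8 changed by 1.62 here, 1.89 in old WT and 2.19 in old Zmpste24 -/-, and neither difference passed (adjusted p = 0.913 and 0.726). Cd177 was an exception, with differences of 3.79 from old WT and 2.13 from old Zmpste24 -/-, both called.

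In matrix genes the effect differed from that in WT of set 1. Col3a1 changed by -1.21 here and 0.99 there, a difference of -2.20 ± 0.40 (adjusted p = 0.00567), and Eln by -1.13 and 1.89, a difference of -3.02 ± 0.54 (adjusted p = 0.00529). Col6a3 and Col14a1 differed by -1.64 and -1.95. The attached tissue pattern was found in 1 of 19 collagens and in 0 of 12 elastic fibre genes, the list that holds Eln. The part of attached tissue in these differences was not tested. Fn1 and Tnc had differences of -1.64 and -1.73 that did not pass (adjusted p = 0.131 and 0.357). The collagen medians were -0.33 here, 0.54 in WT of set 1, -0.27 in old Zmpste24 -/- and -0.36 in old WT.

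Antibody genes went opposite ways in the 2 Zmpste24 -/- groups. Jchain changed by 4.76 in young and -2.79 in old mice, a difference of 7.55 ± 0.80 (adjusted p = 6.08e-06), and Ighm by 2.41 and -2.09. The changes of Jchain in old WT and WT of set 1 were 1.09 and 0.55. Car3 differed from old WT, old Zmpste24 -/- and WT of set 1 by -4.36, -4.81 and -4.94, and Pmvk by 1.36, 0.96 and 1.90, each called.

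**Figure D5:**
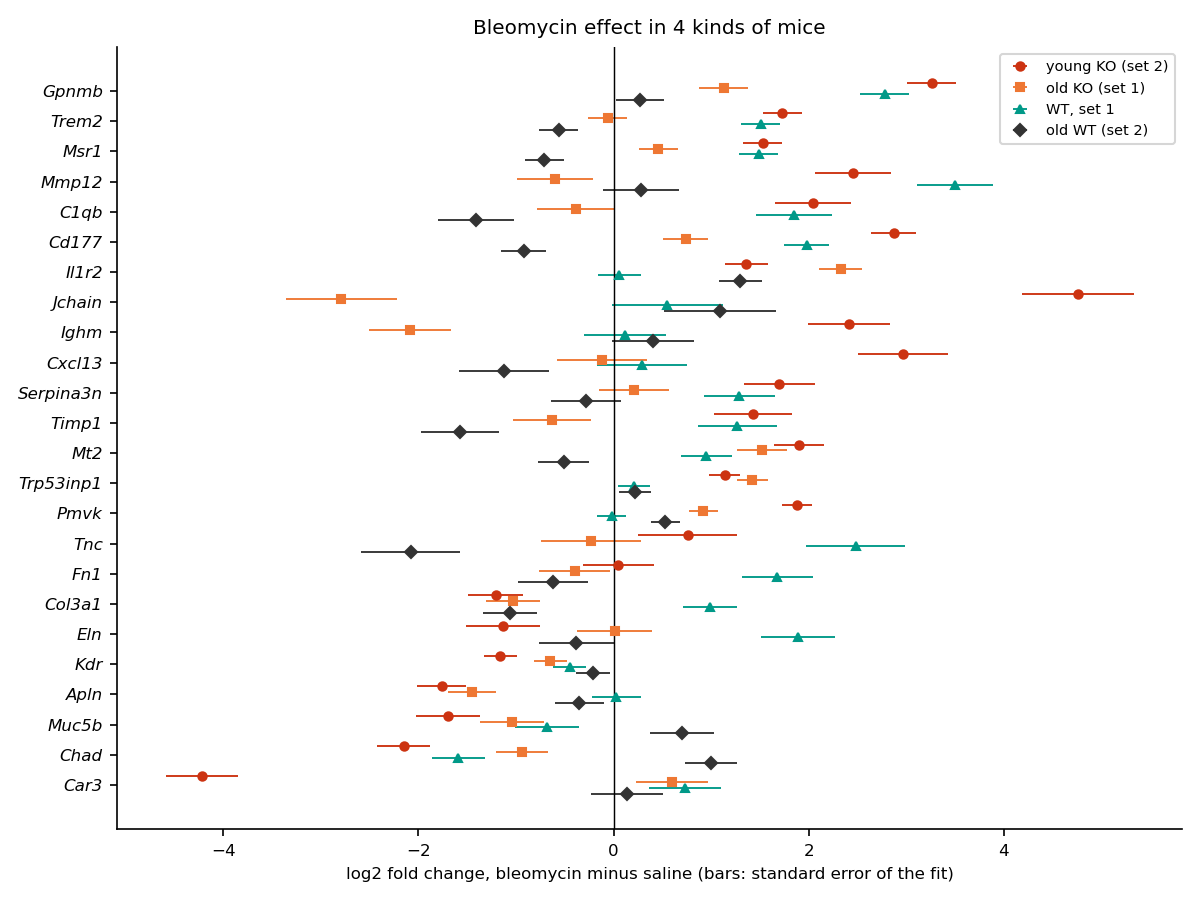
Log2 fold change with bleomycin of 24 genes in young Zmpste24 deficient (KO), old KO, set 1 WT and old WT lungs (points, estimates; bars, SE of the fit; 3 against 3 arrays each). Gpnmb, Trem2 and Msr1 have similar estimates in young KO and set 1 WT lungs, while Jchain and Car3 of young KO lungs lie apart from all other groups.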

How the data were processed

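The authors deposited log2 expression values per probe set from 30 Affymetrix Mouse Gene 2.0 ST arrays, and the sources used here do not give their background correction, summary and normalization. The submitters' processing notes name limma. Of 41345 probe sets 23521 had 1 gene symbol, 1820 several and 16004 none in the platform annotation; the 22180 genes were each read from 1 probe set of their own, and 1082 had more than 1. Arrays have no read depth, and 3 per group limit the precision.

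Group means over all 30 arrays were fitted with limma 3.58.1 (R 4.3.3; lmFit, eBayes), so that all groups share one estimate of the spread. That estimate includes old Zmpste24 -/- saline replicate 3, whose mean correlation with the other arrays was 0.9169. Every other array had 0.9591 to 0.9725. Without that array the difference from the old Zmpste24 -/- effect was called for 451 genes, against 377 with it. P-values were adjusted over all genes by Benjamini-Hochberg, and a gene was called at an adjusted p under 0.05. Each group lies in 1 array set, so the set as a random block had a correlation of 0 and changed nothing. Controls, covariates for attached tissue, scalings, filters, array weights, a replicate block and left out arrays were tried as alternatives. The code was tested on simulated data.

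The arrays compared and the gene lists were chosen with earlier results of these data known. Genes were named by a rule on lists, size and adjusted p, of which the text names a part, and those outside it are marked as chosen after their values were seen. Promoters are the 250 bases before RefSeq starts (GRCm38.p6).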

Additional observations from a re-analysis of the deposited data

Results flagged for a closer look

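The bleomycin effect of the genes named here was compared with the effect in 3 other kinds of mice, and each difference of effects with an adjusted p under 0.05 in limma is given on the log2 scale as the young Zmpste24 -/- effect minus the other. The differences below rest on the same 6 young arrays. Genes of the attached tissue lists are given apart, together with Krtdap, a squamous epithelium gene, and Trdn, a gene of striated muscle, which are on no such list but had the attached tissue pattern. Against set 1 saline replicate 1 their differences were 0.12 (adjusted p = 0.943) and -0.52 (adjusted p = 0.395). The part of attached tissue in the differences between effects was not tested.

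Against old WT, the effect was higher for Cxcl13 (4.10), Cd177 (3.79), Jchain (3.67), C1qb (3.45), Igh-VS107 (3.13), Gpnmb (3.0), Timp1 (3.0), C1qa (2.88), C1qc (2.88), Tnc (2.84), Ms4a7 (2.72), Mt2 (2.41), Cldn4 (2.29), Trem2 (2.28), Msr1 (2.24), Mmp12 (2.17), Serpina3n (1.99), Ccng1 (1.81), Apoe (1.78), Cd68 (1.73), Tgfbi (1.43), Pmvk (1.36), Ctsb (1.33), Fos (1.31), Krt8 (1.16), Krt7 (1.05), Lpl (1.04), Lgals3 (1.01), Ncf1 (0.98) and Trp53inp1 (0.91). It was lower for Chad (-3.15), Muc5b (-2.40), Bpifb1 (-1.99), Apln (-1.40), Tcf21 (-1.29), Cyp2f2 (-0.95) and Kdr (-0.95). Among the genes given apart it was lower for Krt4 (-6.53), Acta1 (-4.46), Car3 (-4.36), Krtdap (-4.12), Nppa (-2.81), Actc1 (-2.69) and Trdn (-2.16).

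Against old Zmpste24 -/-, the effect was higher for Jchain (7.55), Igkj1 (7.02), Igh-VS107 (5.41), Ighm (4.50), Saa3 (4.09), Cxcl13 (3.09), Mmp12 (3.05), Ms4a7 (2.68), C1qb (2.43), C1qa (2.13), Cd177 (2.13), Gpnmb (2.13), Trem2 (1.79), Slc7a11 (1.39), Mmp19 (1.28), Msr1 (1.07), Pmvk (0.96), Ncf1 (0.80) and Apoe (0.79). It was lower for Tpm2 (-1.33). Among the genes given apart it was lower for Krt4 (-6.77), Car3 (-4.81), Acta1 (-4.27), Krtdap (-4.15), Nppa (-2.85), Actc1 (-2.65) and Trdn (-2.23).

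Against WT of set 1, the effect was higher for Igkj1 (4.22), Jchain (4.21), Igh-VS107 (3.04), Cxcl13 (2.68), Pmvk (1.90), Ddit4 (1.41), Il1r2 (1.29) and Trp53inp1 (0.93). It was lower for Eln (-3.02), Col3a1 (-2.20), Spon2 (-2.16), Col14a1 (-1.95), Top2a (-1.83), Apln (-1.79), Col6a3 (-1.64), Aplnr (-1.63), Tpm2 (-1.40), Sfrp2 (-1.22) and Pdgfb (-0.96). Among the genes given apart it was lower for Krt4 (-6.83), Car3 (-4.94), Acta1 (-4.67), Krtdap (-4.42) and Trdn (-2.00).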

How the results depend on the processing

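The number of genes called for bleomycin against saline (1049) varied with the saline arrays, with covariates for attached tissue and with array weights. It was 222 with saline replicate 1 alone, 204 with set 1 saline replicate 1 alone, 1646 with all 6 saline arrays and 139 without saline replicates 2 and 3 and bleomycin replicate 1; set 1 replicate 1 and this last setting were chosen after seeing the data. With list means as covariates it was 39 (squamous), 13 (skeletal muscle), 609 (brown fat) and 8 (all 3); the first 2 means separate the groups almost as treatment does. It was 335 with a fold limit of 1 log2 unit added and 516 at an adjusted p under 0.01. Against the 3 saline arrays without Zmpste24 near the WT level it was 987, with 704 higher and 283 lower. Array weights gave 4925, and 2701, 696 and 1478 for the differences from old WT, old Zmpste24 -/- and WT of set 1 (586, 377 and 263 without them). A fit of only the groups compared gave 1156 for the difference from old WT. Leaving out each array in turn gave 597 to 818, and 363 to 555, 190 to 640 and 88 to 315 for these differences. The cause of these changes was not tested. Quantile normalization gave 1206 calls, 46.1% of them higher, and centring 1066, 48.3% higher, against 53% higher as reported.

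Replicate numbers did not pair the arrays: deviations of same-numbered arrays correlated at -0.21, 0.28 and -0.13. A fit with the replicate block gave 978 calls, and 518, 328 and 233 for the differences.

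Signs turned as follows, on the log2 scale, with no value past the threshold. Against set 1 saline replicate 1 these were Zmpste24 (0.50), S100a8 (-0.09), S100a9 (-0.17), Col1a1 (0.17), Eln (0.07), Tgfb1 (0.40) and Krtdap (0.12). Against young WT saline they were Krt4 (0.18), Ucp1 (0.06), Ighm (-0.30), Col1a1 (0.02), Eln (1.05), Tcf21 (0.15) and Krtdap (0.10). With skeletal muscle as covariate they were S100a8 (-0.11), Col1a1 (0.20), Tgfb1 (0.38) and Krtdap (0.45), with squamous genes Col1a1 (0.12) and Tgfb1 (0.18), and with all 3 means S100a8 (-0.42), Tgfb1 (0.62), Myh11 (0.24), Plvap (0.04), Krtdap (0.31) and Actc1 (0.15). Fn1 was at -0.03 after quantile normalization, -0.08 without saline replicate 1, 0.00 without bleomycin replicate 1 and -0.17 without bleomycin replicate 2. Tgfb1 was at 0.06 against set 1 saline. Zmpste24 was at 0.04 against saline replicate 1 alone and 0.21 when bleomycin replicate 1 was left out too. Against the 3 saline arrays without Zmpste24 near the WT level, Zmpste24 and Tgfb1 were at 0.46 and 0.11.

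Precision is limited by 3 arrays per group, and a probe set near background cannot show a fall.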

Other observations

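Some gene lists outside the comparisons above also held called genes. Among chemokines and their receptors 4 rose and 0 fell of 34 (median 0.13), and among immediate early genes 4 rose and 0 fell of 21 (median 0.20). Rises in these 2 lists numbered 1 and 2 with saline replicate 1 alone, and 0 and 3 against set 1 saline replicate 1. Basement membrane genes, which encode the laminins and type IV collagens under epithelium and endothelium, had 4 falls and 0 rises of 18 (median -0.58). They had 0 falls and a median of -0.53 with saline replicate 1 alone, and 0 falls and a median of 0.04 against set 1 saline replicate 1. Genes of motile cilia had 2 rises and 0 falls of 15 (median 0.24), and 0 and 0 rises with these controls. Alveolar macrophage genes split, with 2 rises, Ctsk and Atp6v0d2, and 3 falls of 16. These became 1 rise and 0 falls with saline replicate 1 alone, and 1 rise and 1 fall against set 1 saline replicate 1. Nuclear lamina genes, which encode the targets and partners of prelamin A processing, and genes of the unfolded protein response gave 0 rises and 0 falls of 15 and 0 rises and 0 falls of 19.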
